A study of Mus musculus with 36 samples.

Results

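The 8 genes described here encode the class II route of antigen presentation: *H2-Aa*, *H2-Ab1* and *H2-Eb1* for the peptide-binding chains, *Cd74* for the invariant chain, *H2-DMa* and *H2-DMb1* for the peptide exchange factor, *Ctss* for a protease of the route and *Ciita* for its transcriptional activator. They were chosen by gene symbol, at a point when earlier results of these data were known. Each matched 1 of the 24750 gene rows of the deposited table, so all 8 were measured and all 8 passed the filter on low values. RNA was sequenced from the epididymal white adipose tissue (eWAT) of 36 male C57BL/6 mice, 3 in each of 12 groups. The mice were WT or CCL19-KI, received a normal diet (ND), a 40% HFD or a 60% HFD for 10 weeks (high-fat diets with that share of fat), and either carried a silk ligature around a molar for the last 2 weeks (ligature-induced periodontitis, LIP) or did not. In CCL19-KI mice, a homozygous line, the chemokine gene *Ccl19* had been inserted at the locus of the adipocyte gene *Adipoq*, said to leave *Adipoq* itself intact, so the transgene follows adipocytes, and the WT mice came from separate breeding. According to the study's methods the mice were young adults and lymph nodes were taken out of the fat before extraction.

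Class II molecules carry peptides from endocytosed protein to the surface of antigen-presenting cells, where CD4 T cells read them. The alpha and beta chains assemble in the endoplasmic reticulum with the invariant chain, which blocks the groove; in endosomes the invariant chain is cut, cathepsin S making the late cuts in dendritic cells, B cells and many macrophages, and H2-DM then exchanges the last fragment for peptide. CIITA turns on nearly the whole set by docking on factors bound to the X and Y boxes of the promoters, and in fat the main class II-bearing cells are macrophages and dendritic cells.

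The promoter stretch is shown for *H2-Aa* and *H2-Eb1*, whose levels followed *Cd74* closely from mouse to mouse, and for *Ctss*, which followed it less closely. RefSeq promoter entries on GRCm38.p6 were found for 5 of the 8 members (*H2-Aa*, *H2-Eb1*, *H2-DMa*, *H2-DMb1* and *Ctss*) and not for *H2-Ab1*, *Ciita* and *Cd74*. Printed are the 150 bases before the start site, 5′ to 3′ on the gene's own strand, with matches to 3 motifs in capitals: the Y box core TGATTGG, an X1 box core and a core of the interferon-stimulated response element, searched on both strands and chosen after the promoters were read.
H2-Aa (chr17:34287824-34287973, minus strand): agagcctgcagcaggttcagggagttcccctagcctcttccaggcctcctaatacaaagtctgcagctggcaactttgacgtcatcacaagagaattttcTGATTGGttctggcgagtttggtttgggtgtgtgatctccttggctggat
H2-Eb1 (chr17:34305717-34305866, plus strand): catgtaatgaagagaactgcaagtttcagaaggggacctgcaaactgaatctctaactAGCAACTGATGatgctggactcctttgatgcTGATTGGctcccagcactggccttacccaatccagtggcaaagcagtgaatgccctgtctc
Ctss (chr3:95526636-95526785, plus strand): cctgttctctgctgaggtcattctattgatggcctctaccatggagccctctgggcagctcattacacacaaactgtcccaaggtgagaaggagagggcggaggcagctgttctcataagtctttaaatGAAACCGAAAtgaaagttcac
Both class II chain promoters held the Y box core, 50 to 44 bases before the *H2-Aa* start and 61 to 55 bases before the *H2-Eb1* start. The X1 box core stood 92 to 82 bases before the *H2-Eb1* start as AGCAACTGATG. The *H2-DMb1* window, not printed because it overlaps an annotated transcript, held AGTAACTGATG 95 to 85 bases and the Y box core 63 to 57 bases before its start. The *Ctss* window held neither box, and it held GAAACCGAAA 21 to 12 bases before its start; the *H2-DMa* windows held none of the 3 motifs. Of 32851 RefSeq promoter windows of that length, 5.71% held the Y box core, 0.411% the X1 box core, 0.0335% both and 1.59% the interferon element core. A match is a description of letters and was not tied to any factor's binding here.

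Before the members are compared, the libraries that stand apart have to be named. *Ccl19*, the inserted gene, was higher in CCL19-KI than in WT eWAT, with a log2 difference of 2.53 ± 0.25 (SE; limma adjusted p = 8.77e-07), and *Adipoq*, its locus, was lower, at -1.75 ± 0.21. Depth was between 11962228 and 21581595 reads per library with a median of 15573273, so that 3 reads, taken as the detection floor, correspond to at most 0.250 normalized CPM, the scaled read counts used here. In 2 libraries *Ccl19* went against the label. The library labelled WT, ND, without ligature, replicate 2 held *Ccl19* at 19.2 normalized CPM, within the range of the CCL19-KI libraries. The library labelled CCL19-KI, 60% HFD, without ligature, replicate 3 held it at 0.687, within the range of the WT libraries. Both also carried RNA of the epididymal epithelium, an adjoining tissue, with summed markers at 7591 and 9553, the highest sums of the 36 libraries; the median was 1.32, and CCL19-KI, 60% HFD, without ligature, replicate 2 came next at 6992. A different library, WT, ND, without ligature, replicate 1, was the highest of the 36 for each of the 8 members, and its summed macrophage markers, 3733, were the highest too. Its *Lep*, *Cfd* and *Itgax* stood at 4217, 333 and 61.7. Their medians were 467, 3665 and 5.27 on ND and 1734, 474 and 26.4 on the 60% HFD. CCL19-KI, ND, without ligature, replicate 1 held *Lep* at 2199 and *Cfd* at 1040, against 128 and 3110, and 200 and 2288, in its group. The diet labels of both libraries were followed and not tested. Averaged calls that rest on the 2 libraries against their labels or on WT, ND, without ligature, replicate 1 are given with and without them. The same holds for the CCL19-KI difference on ND without ligature. Sizes of the interactions are given with all libraries only. Of the ratios, only *Ctss* over *Cd74* is also given without the 2 libraries against their labels.

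The members covered a wide range of abundance. Per kilobase of merged exons, which allows genes to be set against each other, the median over 36 libraries was 383 normalized CPM for *Cd74*, 282 for *H2-Aa*, 187 for *H2-Ab1* and 129 for *H2-Eb1*, so the invariant chain was the most abundant of the set and the chains followed it. *Ctss* lay at 72.9 on the same scale. The exchange factor genes were lower, *H2-DMb1* at 19.6 and *H2-DMa* at 8.27. Their merged exons were 1404 and 2668 bases long, and before division by length their medians were 27.4 and 22.1. *Ciita*, the activator, was the lowest at 2.02. In normalized CPM, not divided by length, the lowest and highest library were 223 and 1223 for *Cd74*, 134 and 641 for *H2-Aa*, 85.2 and 508 for *H2-Ab1*, and 92.9 and 466 for *H2-Eb1*. No member was near the detection floor in any library, the lowest value being 6.55 for *Ciita*. In bulk tissue, fewer cells of a kind and less RNA per cell cannot be told apart.

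Apart from *Cd74* on chromosome 18, *Ciita* on chromosome 16 and *Ctss* on chromosome 3, the members lie in the MHC on chromosome 17. In the GENCODE M21 annotation (GRCm38) *H2-Ab1* spans chr17:34257689-34269419, *H2-Aa* chr17:34282744-34287823 on the minus strand, *H2-Eb1* chr17:34305867-34316674, *H2-DMa* chr17:34119541-34139101 and *H2-DMb1* chr17:34153072-34160230. *H2-DMb1* has a near copy, *H2-DMb2*: 31.4% of the 31-base words in its transcripts also occur in *H2-DMb2*, so reads could be split between both genes. For the other 7 members 1.41% or less of the words were shared with any other gene.

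The members varied together across mice. Over the 36 libraries, Pearson's r of log2 values between pairs of *H2-Aa*, *H2-Ab1*, *H2-Eb1* and *Cd74* lay between 0.95 and 0.98 (6 pairs), and *H2-DMa* joined them at 0.90 to 0.94. *H2-DMb1* followed these 4 genes less closely, at 0.79 to 0.87. *Ciita* lay at 0.74 to 0.79 and *Ctss* at 0.68 to 0.75. The closest partner of *Ctss* among the members was *H2-DMb1*, at 0.90, and its r with *H2-DMa*, 0.59, was the lowest of the 28 pairs. These are descriptions over libraries that share the same tissue pieces and depth. By group, the highest mean exceeded the lowest by 1.59-fold for *H2-Eb1*, 1.67-fold for *H2-Aa* and 1.91-fold for *Cd74*, against 2.83-fold for *H2-DMb1* and 3.64-fold for *Ctss*. When the 12 groups were ordered by mean, all 11 pairs of neighbours overlapped for every member.

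**Figure D1:**
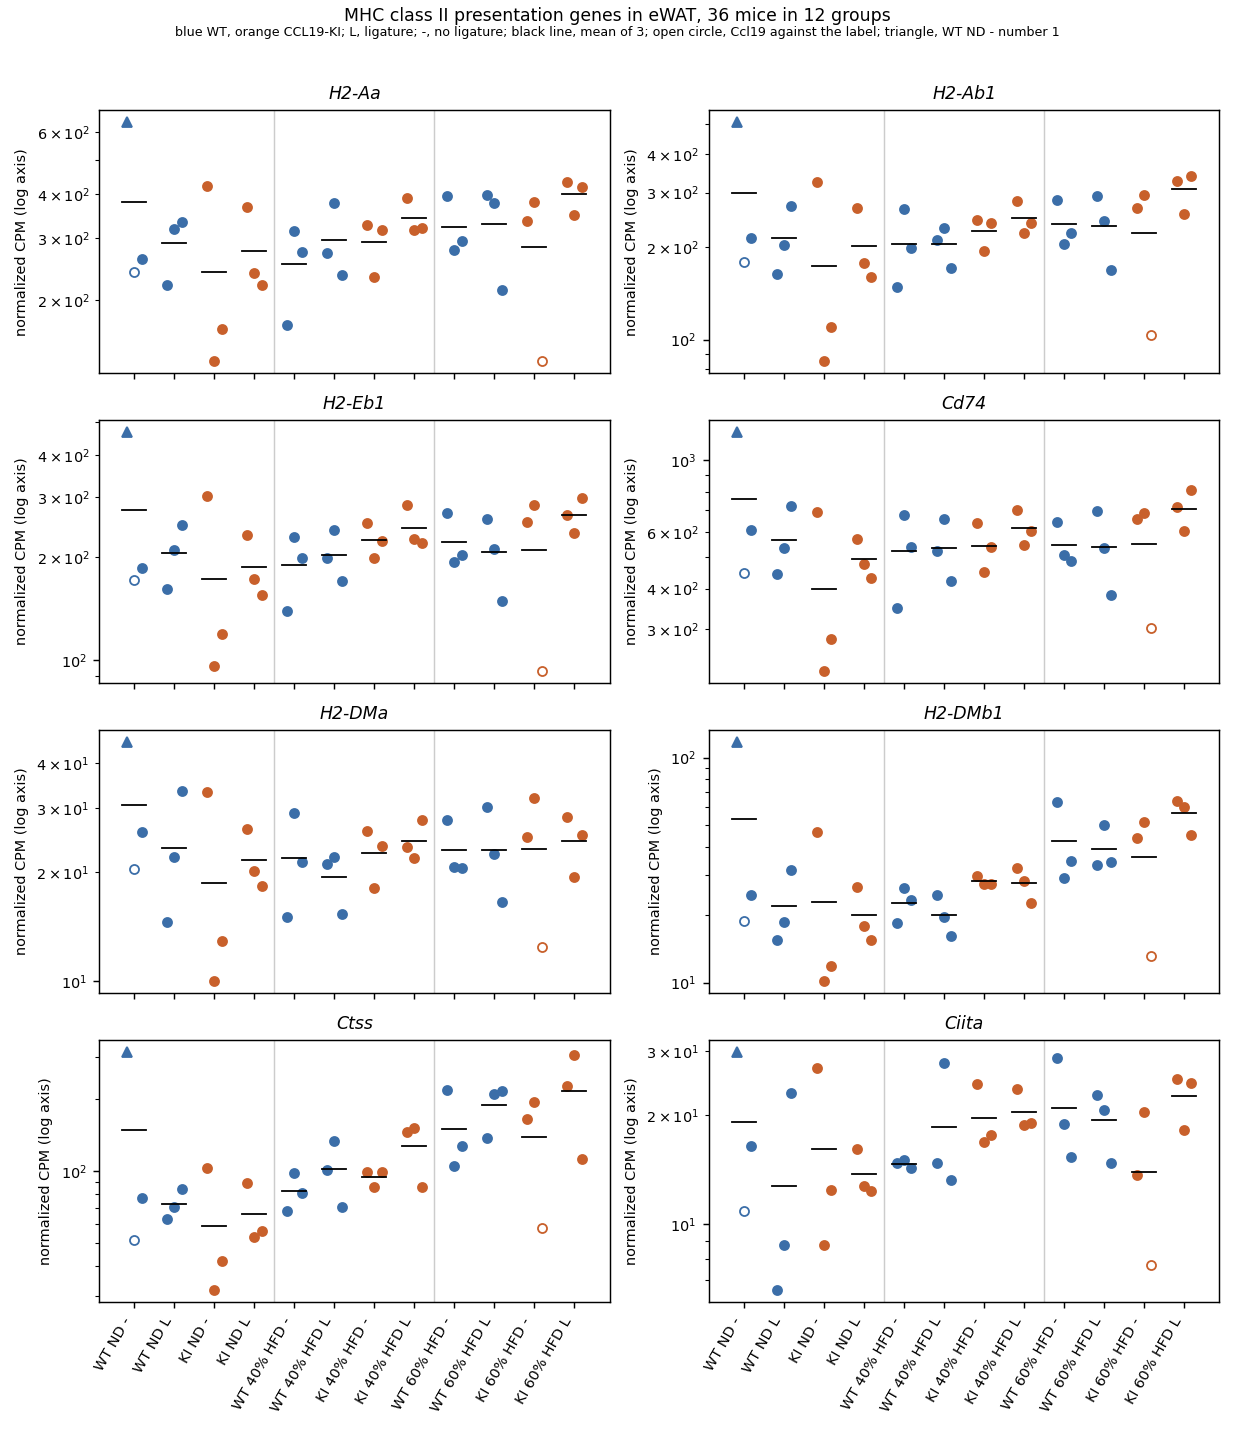
Normalized CPM (log axis) of the 8 members in each of the 36 mice by group, with the mean of 3 mice as a black line, WT in blue and CCL19-KI in orange; L marks ligature. Open circles are the 2 libraries whose *Ccl19* goes against the label and the triangle is WT, ND, without ligature, replicate 1, at the top of every panel; the 4 group means on the 60% HFD run from 139 to 215 for *Ctss* and from 36.3 to 56.5 for *H2-DMb1*, and the mean that holds the triangle, 148 and 53.5, lies among them. The group means of *Cd74* lie between 398 and 759.

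The first question was whether diet changed the set. Of the 8 members, *Ctss* and *H2-DMb1* rose on the 60% HFD against ND and the other 6 were not called. Each was tested by limma on log2(normalized CPM + 1) over 17852 genes with Benjamini-Hochberg adjustment, the contrast averaging the 4 combinations of genotype and ligature. By that rule 18.6% of all genes were called and 10.2% of all genes were called higher, against 2 of 8 members called higher. The median log2 fold change of the members was 0.24, against 0.01 over all genes.

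*Ctss*, the cathepsin, ranged from 31.7 to 316 normalized CPM in the 12 ND mice (median 67.1), from 68.4 to 152 in the 12 mice on the 40% HFD (median 98.5) and from 57.9 to 306 in the 12 mice on the 60% HFD (median 180). Diets overlapped, with the highest ND value in the library already set apart and the lowest 60% HFD value in one that went against its label. On the 60% HFD *Ctss* was higher than on ND by a log2 fold change of 1.15 ± 0.26 (SE, limma adjusted p = 0.00389). The increase was positive in 4 of 4 combinations of genotype and ligature. Without the 2 libraries against their labels it was 1.15 (adjusted p = 0.00294), and without WT, ND, without ligature, replicate 1 as well it was 1.40 (adjusted p = 0.000223).

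By group, *Ctss* read 316, 51.4 and 76.8 in WT on ND without ligature and 219, 105 and 127 on the 60% HFD. With ligature, WT read 63.2, 71.1 and 84.5 on ND against 138, 210 and 216 on the 60% HFD. The first pair overlapped through replicate 1 alone, and the second did not overlap, as was the case for 35.3% of all genes. CCL19-KI without ligature read 103, 31.7 and 42.3 on ND against 165, 195 and 57.9 on the 60% HFD, the last being the library against its label. CCL19-KI with ligature read 89.0, 53.0 and 55.9 on ND against 228, 306 and 113 on the 60% HFD. These last groups did not overlap, and *Ctss* was called there, with a log2 fold change of 1.61 ± 0.51 (limma adjusted p = 0.0398), where 12.8% of all genes were called and 36.9% of all genes did not overlap. That call was lost when CCL19-KI, ND, with ligature, replicate 2 or 3, or CCL19-KI, 60% HFD, with ligature, replicate 1 or 2, was left out. In the other combinations limma called 0 of 8 members and edgeR 0, with 0, 1 and 1 member at an unadjusted p under 0.05 in WT without ligature, WT with ligature and CCL19-KI without ligature, where 3.41%, 2.57% and 10.2% of all genes were called.

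*H2-DMb1*, the beta chain of the exchange factor, ranged from 10.2 to 117 normalized CPM on ND (median 18.6), from 16.0 to 32.3 on the 40% HFD (median 25.5) and from 13.1 to 64.1 on the 60% HFD (median 44.7). All but 1 of the 60% HFD libraries lay above the ND median, the exception being the library against its label. *H2-DMb1* was higher on the 60% HFD than on ND by a log2 fold change of 0.79 ± 0.26 (limma adjusted p = 0.0378), positive in 4 of 4 combinations. Leaving out both libraries against their labels gave 0.82 (adjusted p = 0.0248). Leaving out WT, ND, without ligature, replicate 1 alone, which held the highest ND value, gave 0.99 (limma adjusted p = 0.00348). The call was close to the threshold: it was kept in 10 of the 24 fits that left out 1 mouse, in which the log2 fold change lay between 0.67 and 0.99, and edgeR on the recovered reads gave 0.67 with an adjusted p of 0.0895.

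The *H2-DMb1* values within groups are given as a description, and no interaction contrast placed the difference in any of them. WT without ligature read 117, 18.7 and 24.4 on ND and 63.6, 29.3 and 34.6 on the 60% HFD, while WT with ligature read 15.4, 18.6 and 31.6 against 33.2, 50.1 and 34.2. The latter groups did not overlap, by a narrow margin, as was the case for 35.3% of all genes. CCL19-KI without ligature read 46.7, 10.2 and 11.9 on ND against 44.0, 51.8 and 13.1, and CCL19-KI with ligature read 26.6, 17.8 and 15.4 against 64.1, 60.1 and 45.4. CCL19-KI mice with ligature had the largest of the 4 differences, at 1.48 ± 0.53 (limma adjusted p = 0.0605). The sum of *H2-DMb1* and *H2-DMb2* does not depend on how reads were divided between them. It was chosen after the values were seen, so it is given as a description, with no test. On the log2 scale it differed by 0.65 between the 60% HFD and ND, higher in 3 of 4 combinations. Between the 60% and 40% HFD it differed by 0.62, higher in 4 of 4.

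The remaining 6 members were not called. *Cd74* had medians of 507, 543 and 624 normalized CPM on ND, the 40% HFD and the 60% HFD, and a log2 fold change on the 60% HFD against ND of 0.16 ± 0.18 (95% interval -0.22 to 0.54, limma adjusted p = 0.574). *H2-Ab1* had medians of 191, 226 and 262 and a log2 fold change of 0.26 ± 0.20 (-0.16 to 0.68). For *H2-Aa* the log2 fold change was 0.23 ± 0.20 and for *H2-Eb1* 0.17 ± 0.19. *H2-DMa*, partner of *H2-DMb1*, stood at 0.06 ± 0.18 (-0.32 to 0.43), and *Ciita* at 0.36 ± 0.20 (-0.04 to 0.77, adjusted p = 0.193). The intervals leave room for changes of moderate size in either direction for *H2-DMa* and upward for *Ciita*.

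Against the 40% HFD, none of the 8 members was called on the 60% HFD by limma, where 0.745% of all genes were called; 2 had an unadjusted p under 0.05, as did 13.2% of all genes, and edgeR called 0. These were the same *H2-DMb1* and *Ctss*, with log2 fold changes of 0.72 ± 0.26 (adjusted p = 0.212) and 0.69 ± 0.26 (adjusted p = 0.217), each positive in 4 of 4 combinations. Once both libraries against their labels were left out, the adjusted p values were 0.0535 and 0.0589. On the 40% HFD against ND limma called 0 of 8, with 0 at an unadjusted p under 0.05 and 0 by edgeR, where 9.21% of all genes were called. *Ctss* stood at 0.46 ± 0.26 there (adjusted p = 0.257), *Ciita* at 0.33 ± 0.20 and *H2-DMb1* at 0.07 ± 0.26. The 3 diet comparisons share their groups, so their values are not independent of each other.

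**Figure D2:**
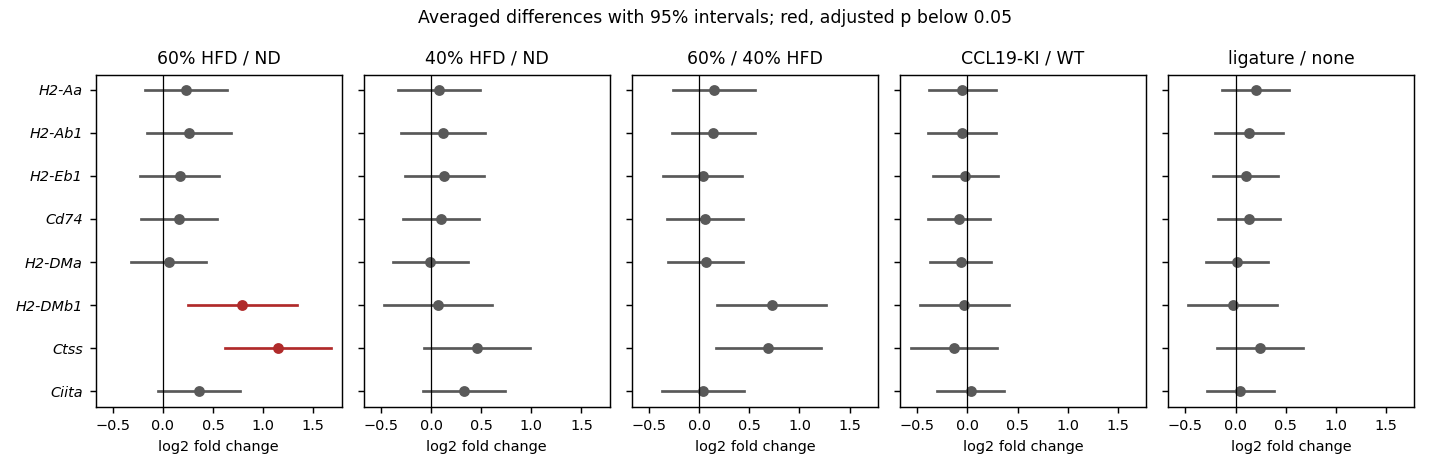
Log2 fold changes (x axis) with 95% intervals of the 8 members in the 5 averaged comparisons from the limma fit; red marks an adjusted p below 0.05. *Ctss* at 1.15 and *H2-DMb1* at 0.79 on the 60% HFD against ND are the only red points, and the CCL19-KI and ligature panels cluster around 0.

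The members were also set against each other within each library, in normalized CPM not divided by length. These ratios were chosen after the members' values were seen, so they restate the differences above on another scale and are given as a description, with no test. The ratio of *Ctss* to *Cd74* had a median of 0.137 on ND (0.111 to 0.258 over 12 mice), 0.187 on the 40% HFD (0.141 to 0.278) and 0.272 on the 60% HFD (0.139 to 0.567), so the diets overlapped. Averaged over the 4 combinations of genotype and ligature, the ratio was 2.00-fold higher on the 60% HFD than on ND, 1.29-fold higher on the 40% HFD than on ND and 1.56-fold higher on the 60% than on the 40% HFD, each time in 4 of 4 combinations. With both libraries against their labels dropped, the log2 difference between the 60% HFD and ND was 0.99, against 1.00 with them.

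*H2-DMb1* and *H2-DMa* encode the beta and alpha chain of the same dimer, and their ratio had a median of 0.942 on ND (0.842 to 2.56), 1.15 on the 40% HFD (0.812 to 1.52) and 1.77 on the 60% HFD (1.05 to 3.11). It was 1.69-fold higher on the 60% HFD than on ND and 1.60-fold higher on the 60% than on the 40% HFD, in 4 of 4 combinations each time, and 1.06-fold higher on the 40% HFD than on ND. With the reads of *H2-DMb2* added to those of *H2-DMb1*, the ratio to *H2-DMa* was 1.52-fold and 1.48-fold higher in the same 60% HFD comparisons, again in 4 of 4 combinations. *H2-DMb1* over *Cd74* gave 1.59-fold and 1.61-fold.

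The other ratios differed less. *H2-Aa*, *H2-Ab1* and *H2-Eb1* over *Cd74* differed between the 60% HFD and ND by 1.05-fold, 1.08-fold and 1.01-fold, and *H2-DMa* over *Cd74* by 0.937-fold. *Ciita* over *Cd74* was 1.18-fold higher on the 60% HFD and 1.19-fold higher on the 40% HFD than on ND, in 3 of 4 combinations each.

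**Figure D3:**
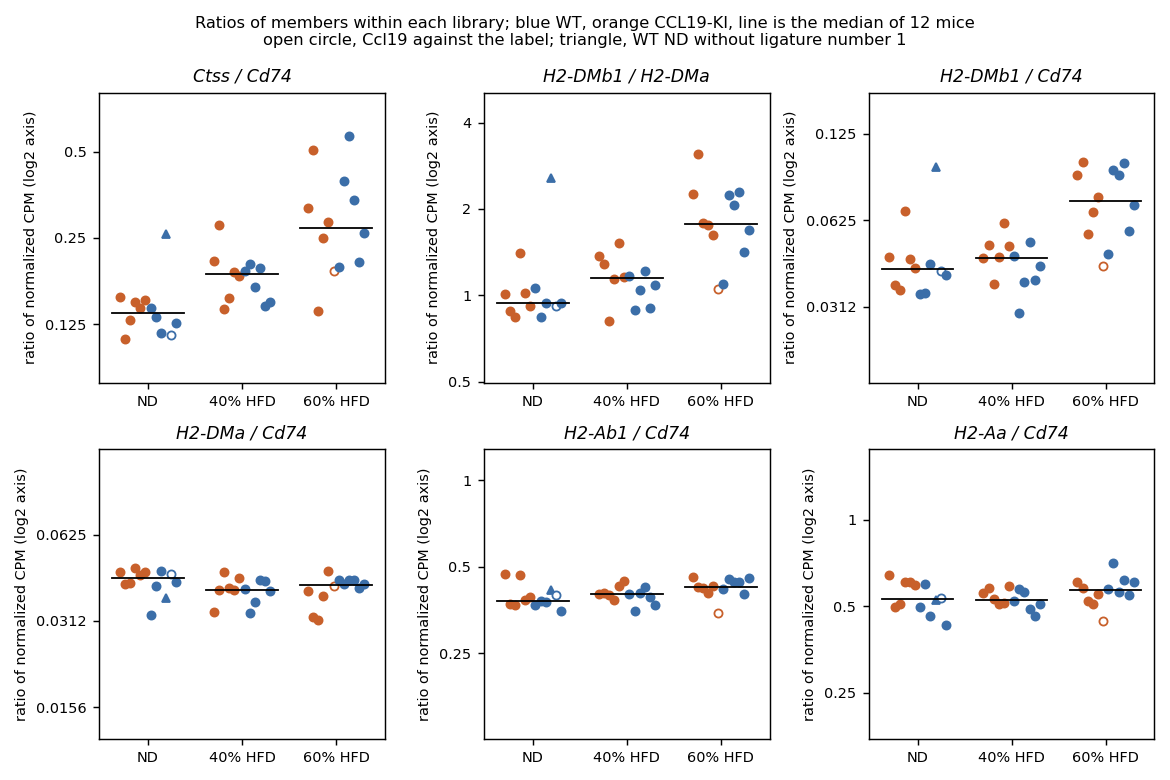
Ratios of members within each library by diet (log2 axis of equal span in every panel), 12 mice per diet, black line the median, WT in blue and CCL19-KI in orange. *Ctss*/*Cd74* climbs from a median of 0.137 on ND to 0.272 on the 60% HFD and *H2-DMb1*/*H2-DMa* from 0.942 to 1.77, while *H2-DMa*, *H2-Ab1* and *H2-Aa* over *Cd74* stay in a narrow band.

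The second question was whether adipocyte *Ccl19* altered the set. It did not do so past the test: averaged over diets and ligature, the CCL19-KI log2 differences from WT ran from -0.13 (*Ctss*) to 0.03 (*Ciita*) with a median of -0.05, against -0.02 over all genes. None of the 8 was called by limma (0 at an unadjusted p under 0.05, 0 by edgeR), where 0.459% of all genes were called. The 95% interval was -0.39 to 0.23 for *Cd74* and -0.56 to 0.30 for *Ctss*. With both libraries against their labels left out the median was -0.02, and without WT, ND, without ligature, replicate 1 as well it was 0.09, with 0 members called in either case.

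Within single groups, the genotype differences of the members had both signs. On the 40% HFD all 8 members were higher in CCL19-KI than in WT, with medians of 0.22 without and 0.27 with ligature, and with ligature on the 60% HFD all 8 were higher, with a median of 0.36; limma called none (0 at an unadjusted p under 0.05, 0 by edgeR), where 0.0056%, 0.0112% and 0.0112% of all genes were called. On the 60% HFD without ligature all 8 were lower, with a median of -0.22 and none called (0 at an unadjusted p under 0.05, 0 by edgeR), where 16.8% of all genes were called and 1 library went against its label. On ND without ligature all 8 were lower in CCL19-KI, with a median of -0.84, and limma and edgeR called 0. An unadjusted p under 0.05 was reached by 3 of 8 members and 33.0% of all genes. There *Cd74* read 1223, 448 and 606 in WT against 692, 223 and 278 in CCL19-KI, with a log2 difference of -0.98 ± 0.37 (limma adjusted p = 0.0659). Groups overlapped, and 16.6% of all genes were called in that comparison.

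The number called on ND without ligature changed with single libraries. Without the 2 libraries against their labels 4 of 8 members were called lower in CCL19-KI (*H2-Ab1*, *H2-DMb1*, *Cd74* and *Ctss*) where 19.5% of all genes were called, and *Cd74* stood at -1.30 (adjusted p = 0.0179). When WT, ND, without ligature, replicate 1 was left out too, which leaves a single WT mouse assumed to vary like the other groups, *Cd74* stood at -0.79 (adjusted p = 0.261) and none was called, where 4.01% of all genes were. Leaving out CCL19-KI, ND, without ligature, replicate 1 alone, whose *Cd74* was 692, gave 7 of 8 called lower, where 27.1% of all genes were called. Replicates 2 and 3 of that group held summed hepatocyte markers of 24444 and 27296 and summed adipocyte markers of 11003 and 9110. In WT on ND without ligature these sums ran from 1343 to 2887 and from 17244 to 32699. The part of this difference in tissue makeup in the members' values was not tested. With ligature on ND, the median difference was -0.10 and limma called none (0 at an unadjusted p under 0.05, 0 by edgeR), where 1.03% of all genes were called.

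The third question was the ligature. The sample labels give ligature to 18 of the 36 libraries and are followed here, while the series description and the study's methods speak of eWAT from ligatured mice, so each comparison by ligature rests on the labels alone. Averaged over diet and genotype, the log2 differences of the members ran from -0.03 (*H2-DMb1*) to 0.24 (*Ctss*) with a median of 0.12 against -0.02 over all genes, and limma called 0 of 8 (0 at an unadjusted p under 0.05, 0 by edgeR), where 0.325% of all genes were called. *Ctss* had an interval of -0.19 to 0.67 and *Cd74* of -0.17 to 0.45. In CCL19-KI on the 60% HFD all 8 members were higher with ligature, with a median of 0.61 and none called (0 at an unadjusted p under 0.05, 0 by edgeR; 5.66% of all genes), and the group without ligature holds a library against its label. In WT on ND all 8 were lower with ligature, with a median of -0.37 and again none called (0 at an unadjusted p under 0.05, 0 by edgeR, 6.73% of all genes), and the group without ligature holds both a library against its label and the one with the highest values. Omitting both libraries against their labels, the averaged median was -0.01, and without all 3 it was 0.09.

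Whether one factor changed the effect of another was tested by 6 interaction contrasts, and limma called 0 of 8 members in each, as did edgeR, where 0% to 0.476% of all genes were called (0.0056% for the CCL19-KI effect by ligature). An unadjusted p under 0.05 was reached by 1 member in 1 of the contrasts. It was *Cd74*, whose CCL19-KI effect was higher on the 60% HFD than on ND by 0.76 ± 0.37 on the log2 scale (limma adjusted p = 0.224). That contrast includes both libraries against their labels and WT, ND, without ligature, replicate 1. *Cd74* in replicate 1 was 1223, against 448 and 606 in the rest of its group, and the size of the contrast without these libraries is not given. For *Ctss* the same contrast gave 0.55 ± 0.51. The diet effect of *Ctss* ran from 0.40 in WT without ligature to 1.61 in CCL19-KI with ligature, and these contrasts did not show it to differ by genotype or by ligature.

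**Figure D4:**
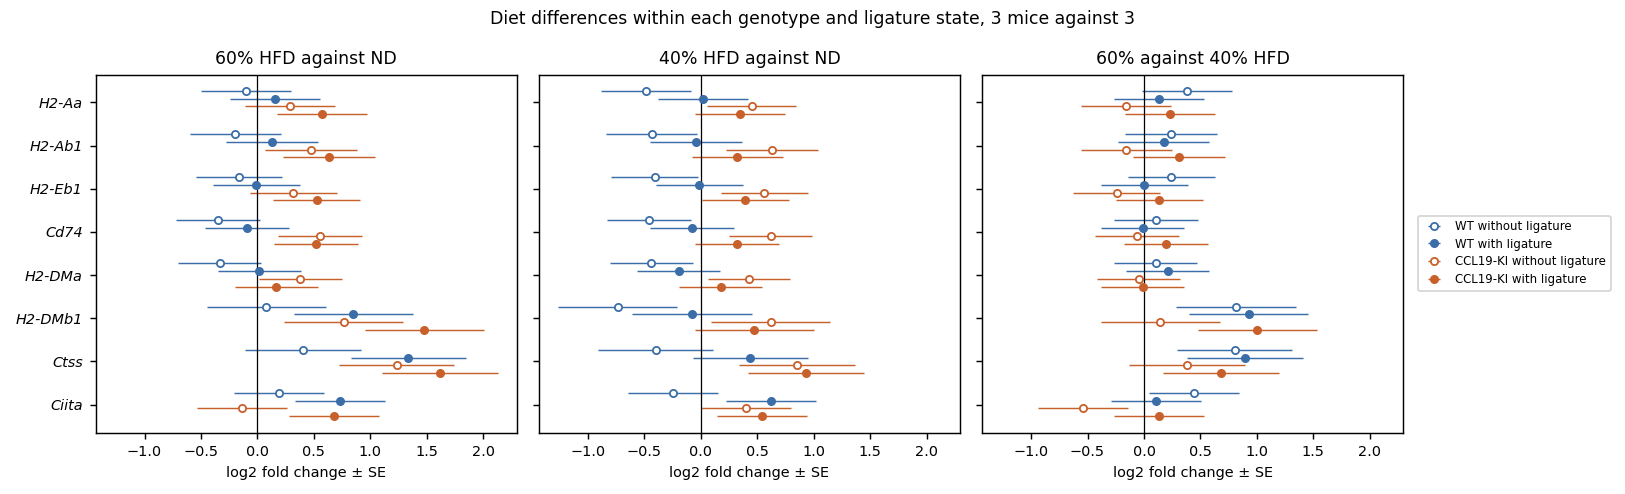
Log2 fold changes ± SE (x axis) of the 8 members for the 3 diet comparisons within each combination of genotype and ligature, 3 mice against 3, open symbols without and filled with ligature. For the 60% HFD against ND, *Ctss* and *H2-DMb1* lie to the right of 0 in 4 of 4 combinations, while *Cd74* lies to the left of 0 in both WT rows and to the right in both CCL19-KI rows. The rows without ligature include the libraries against their labels and, for WT, replicate 1 on ND with the highest *Cd74* of all libraries.

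Other genes of the class II route were read on the 60% HFD against ND. There 18.6% of all genes were called, and 10.2% of all genes were called higher. Of 20 listed genes 18 were tested, and 3 rose against ND and 0 fell, with a median of 0.09: *Ctsl*, the lysosomal cathepsin L, rose by 0.73 ± 0.15 (limma adjusted p = 0.00263), *Lgmn*, the asparagine endopeptidase that can make an early cut of the invariant chain, by 0.64 ± 0.15, and *Ifi30*, the thiol reductase that unfolds disulfide-bonded antigen, by 0.55 ± 0.14. *Ctsl* had medians of 328, 492 and 623 normalized CPM on ND, the 40% HFD and the 60% HFD. *Ifi30* had medians of 24.6, 24.5 and 37.8. It was the single one of these 18 called on the 60% against the 40% HFD (0.63 ± 0.14, limma adjusted p = 0.0330), where 0.745% of all genes were called. Like *Ctss*, these 3 encode enzymes of the endosome and lysosome. On the 40% HFD against ND, by genotype and by ligature, 0 of the 18 were called. The genes that bind the class II promoters (*Rfx5*, *Rfxap*, *Rfxank*, *Nfya*, *Nfyb*, *Nfyc*) and those for costimulation (*Cd40*, *Cd80*, *Cd86*) were not called in any averaged comparison. *H2-Ea* had no row.

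The class I route, which shows cytosolic peptides to CD8 T cells, had 2 of 10 listed genes called higher on the 60% HFD against ND: *B2m*, the light chain, by 0.58 ± 0.13 (limma adjusted p = 0.00450) and *H2-K1*, a heavy chain, by 0.57 ± 0.16 (adjusted p = 0.0143). On the 40% HFD 1 was called, *Erap1*, a peptide-trimming enzyme, at 0.29 ± 0.09. Of all genes, 10.2% were called higher on the 60% HFD against ND. By either sign, 9.21% were called on the 40% HFD and 0.325% by ligature. Of the interferon gamma axis, whose signal induces *Ciita*, 6 of 7 listed genes were tested. *Jak1* was called higher on the 60% HFD (0.29 ± 0.06) and the 40% HFD (0.22 ± 0.06), and *Ifngr1*, a receptor chain, with ligature (0.58 ± 0.11, adjusted p = 0.0173), while *Irf1* was not called in any averaged comparison. *Ifng* itself had no row.

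The cells that carry class II were followed through marker genes, in the diet contrast where 18.6% of all genes were called and 10.2% were called higher. Of 11 macrophage markers, 2 rose on the 60% HFD against ND, *Cd68* by 1.12 ± 0.25 and *Adgre1* by 0.79 ± 0.23, and 2 fell, *Cd163* with a log2 fold change of -0.71 ± 0.22 and *Mertk*, a receptor for uptake of dying cells, with -0.40 ± 0.11. The summed macrophage markers ranged from 949 to 3733 normalized CPM on ND (median 1983) and from 945 to 3081 on the 60% HFD (median 2251). Of 10 dendritic cell markers *Itgax*, which encodes CD11c and is also carried by macrophages of obese fat, rose by 2.14 ± 0.33, with medians of 5.27, 10.8 and 26.4 on the 3 diets, and *Zbtb46*, a marker of conventional dendritic cells, had a log2 fold change of -0.27 ± 0.08 and was called lower. Of 10 B cell markers 0 were called by limma on the 60% HFD, with sums of 6.62 to 37.4 on ND and 5.62 to 29.7 on the 60% HFD. Of the 7 tested T cell markers 0 were called. The share of these cell types in the change of *Ctss* and *H2-DMb1* was not tested.

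Across the 36 mice the members were set against marker sums. With the summed macrophage markers, Pearson's r was 0.83 for *Cd74* (Spearman's rho 0.72), 0.86 for *H2-Aa* (rho 0.77), 0.74 for *Ctss* (rho 0.67) and 0.61 for *Ciita* (rho 0.60). Each of the 8 members gave an adjusted permutation p of 0.00014 or less for r and 0.00018 or less for rho over the 16 relations computed. The permutations moved all 36 mice freely across the 12 groups, so group differences shared by members and markers enter these p values. Members and markers were also read from the same libraries. Without the 2 libraries farthest from the median of the marker sum, r was 0.77, 0.79, 0.69 and 0.49 for these genes. With the summed B cell markers r lay between -0.09 and 0.09, with a lowest adjusted permutation p of 0.977, and Spearman's rho between -0.10 and 0.06. One library, WT, 40% HFD, with ligature, replicate 2, held the highest B cell sum, 154, and its *Ciita*, 27.8, was above the 14.8 and 13.2 of its group. Its summed T cell markers, 19.9, were also the highest of the 36 libraries, and its summed macrophage markers, 2933, were the highest of its group.

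RNA of other tissues also differed by diet. Of 8 hepatocyte markers 7 were called higher on both high-fat diets, where 18.6% (60% HFD) and 9.21% (40% HFD) of all genes were called. Their median log2 fold changes were 3.15 on the 60% HFD and 4.04 on the 40% HFD. Their sum ranged from 1343 to 27296 normalized CPM on ND and from 1415 to 41915 on the 60% HFD. In CCL19-KI without ligature it went the other way, from 2147 to 27296 on ND and from 1415 to 2663 on the 60% HFD. In the other combinations the median sum was higher on the 60% HFD. Of 9 adipocyte markers, *Lep* rose by 1.84 ± 0.36 on the 60% HFD, while *Cfd* (-2.72 ± 0.37), *Retn* (-0.94 ± 0.26) and *Pparg* (-0.46 ± 0.16) fell. For lymph node stroma *Glycam1*, *Fdcsp* and *Madcam1* had no row and *Cxcl13* and *Ccl21a* were not called. The part of these differences in the members' values was not tested.

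The genes whose pattern over the 36 libraries was most like the mean of the 8 scaled members were *Rassf4* (r = 0.92), *Hexa*, the alpha subunit of a lysosomal hexosaminidase (r = 0.92), *Pip4k2a*, a lipid kinase (r = 0.92), *Clec4a3*, a C-type lectin receptor (r = 0.91), *Ly86* (r = 0.91), the tyrosine kinase gene *Syk* (r = 0.90), *Dock2* (r = 0.90), *Slamf9* (r = 0.89), *Dok2* (r = 0.89) and *Tifab* (r = 0.89). Taken singly, *Cd74* was most like *H2-Ab1* (r = 0.97), *H2-Eb1* and *H2-Aa*, all members. *Ctss* was instead most like *Myo1f*, a myosin of leukocytes (r = 0.98), *Cd84*, *Nckap1l* and *Tyrobp*, the adaptor of myeloid receptors (r = 0.96), none of them a member. *H2-DMb1* was most like *Slamf9* (r = 0.94) and *Myo1f* (r = 0.93), and *Ciita* most like *Ptprc*, the pan-leukocyte CD45 gene (r = 0.87). These values describe likeness over shared libraries and carry no test.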

How the data were processed

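Total eWAT RNA of 36 mice was depleted of rRNA, made into directional libraries and sequenced. Per the labels and the study's methods, the authors trimmed reads with Trimmomatic 0.38, aligned them with Bowtie2 and estimated gene counts with RSEM 1.3.0, and normalized them with edgeR. The deposited values are a signal: counts scaled to normalized CPM. The labels name GRCm39 and the methods mm10, so coordinates here come from GENCODE M21 and describe the genes, not the authors' mapping. All values (100%, tolerance 0.01) were whole multiples of what 1 read is worth, so reads were recovered; library totals run from 11962228 to 21581595 reads, and p-values measure the spread between these mice. Symbols were found for 24626 of 24750 rows.

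The 12 groups were fitted together with limma 3.58.1 in R 4.3.3 (trended variance) on log2(normalized CPM + 1), which understates changes of low genes, for the 17852 genes at 1 or more in at least 3 libraries, with Benjamini-Hochberg adjustment and a threshold of 0.05. Contrasts were 5 averaged, 24 within single combinations and 6 interactions. The labels do not state separate litters or batches. Alternatives were edgeR 4.0.16 on recovered reads, pseudocounts, filters, scalings, a replicate block, separate fits, the study's own criteria (unadjusted p together with a ratio threshold), and leaving out each mouse. Correlations with the marker sums were compared by 100000 permutations in Python 3 with scipy. The fit was tested on simulated data.

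The members and lists were chosen with earlier results of these data known. Named are the 8 members; of each list, called genes with the 3 largest changes in the averaged comparisons and genes without reads; the 10 genes most like the members' mean; and *Ccl19* and *Adipoq*. Further genes of the lists, the ratios, the H2-DMb sum, the motifs and the nearest genes of single members were named after their values were seen. Replicate pairs of a group differed beyond sampling noise in every case (chi-square per degree of freedom 15.3 to 333), so no library was counted as a repeat.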

Additional observations from a re-analysis of the deposited data

How the results depend on the processing

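The *Ctss* call on the 60% HFD against ND held in all 24 fits that left out 1 mouse (log2 fold change 1.01 to 1.34, highest adjusted p 0.0102) and in all 10 other alternatives (1.03 to 1.40, highest adjusted p 0.00874). The *H2-DMb1* call held in 10 of those 24 (0.67 to 0.99) and in 8 of 10, failing with quantile normalization (adjusted p = 0.0600) and edgeR (adjusted p = 0.0895); the members called in that comparison were thus 1 under both, and 1 to 2 when a mouse was left out. Same-numbered mice of different groups did not deviate together (median r -0.02 over 198 pairs, 73 over 0.1; 16 of 36 libraries correlated best with their own number), so the numbers were not taken as pairing; with the replicate block, the 60% HFD against ND in CCL19-KI with ligature had 2 members called in place of 1, and the block changed no other count. That count was 0 with quantile normalization, 2 with separate fits by ligature, with only the compared groups, with the study's criteria and without the 2 or 3 libraries set apart, and 0 to 1 when a mouse was left out. In WT with ligature the same diet comparison had 1 called in place of 0 with separate fits, with only the compared groups, with the study's criteria and without the 3 libraries. In CCL19-KI without ligature it had 1 in place of 0 with the study's criteria and without the 2 libraries, 2 without the 3, and 0 to 4 when a mouse was left out, the 4 without CCL19-KI, ND, without ligature, replicate 1. The 60% against the 40% HFD, averaged, had 2 in place of 0 with the study's criteria and without the 3 libraries. CCL19-KI against WT on ND without ligature had 3 with the study's criteria, 4 without the 2 libraries and 0 to 7 when a mouse was left out (2 without WT replicate 2, 7 without CCL19-KI replicate 1). The CCL19-KI effect by 60% HFD had 1 with the study's criteria and 0 to 1 when a mouse was left out. The causes were not tested, beyond the smaller or larger set of mice that each setting uses.

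Sign changes touched only uncalled log2 fold changes near 0. With quantile normalization they were, on the 60% HFD against ND, -0.023 for *H2-DMa* and -0.0051 for *Cd74*; on the 40% HFD against ND, -0.093 for *H2-Aa*, -0.034 for *H2-Ab1*, -0.023 for *H2-Eb1* and -0.094 for *Cd74*; -0.017 for *Ciita* on the 60% against the 40% HFD; for genotype, 0.068 for *H2-Aa*, 0.057 for *H2-Ab1*, 0.088 for *H2-Eb1*, 0.017 for *H2-DMb1* and 0.065 for *Cd74*; and 0.0056 for *H2-DMb1* with ligature. With edgeR they were -0.15 for *H2-DMb1* on the 40% HFD and -0.028 for *H2-DMa* with ligature. Without the 2 libraries against their labels, an alternative chosen after seeing the data, they were -0.053 for *H2-DMb1* on the 40% HFD, 0.020 for *H2-Eb1* by genotype, and with ligature -0.028 for *H2-Eb1*, -0.086 for *H2-DMa* and -0.064 for *Ciita*. Without those and WT, ND, without ligature, replicate 1, also added later, they were 0.033 for *H2-DMa* on the 40% HFD, -0.019 for *H2-DMa* with ligature, and by genotype 0.094 for *H2-Aa*, 0.083 for *H2-Ab1*, 0.13 for *H2-Eb1*, 0.021 for *H2-DMa*, 0.17 for *H2-DMb1*, 0.015 for *Cd74* and 0.040 for *Ctss*.

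Leaving out 1 mouse changed the sign of 15 uncalled values, whose ranges were as follows. On the 60% HFD against ND *H2-DMa* ran from -0.024 to 0.18. On the 40% HFD against ND *H2-DMa* ran from -0.088 to 0.12 and *H2-DMb1* from -0.053 to 0.27. On the 60% against the 40% HFD *Cd74* ran from -0.0091 to 0.15, *Ciita* from -0.041 to 0.12, *H2-DMa* from -0.0044 to 0.16 and *H2-Eb1* from -0.039 to 0.16. By genotype *Ciita* ran from -0.039 to 0.12, *H2-Aa* from -0.13 to 0.029, *H2-Ab1* from -0.15 to 0.028, *H2-DMb1* from -0.14 to 0.10 and *H2-Eb1* from -0.10 to 0.063. With ligature *Ciita* ran from -0.035 to 0.12, *H2-DMa* from -0.045 to 0.10 and *H2-DMb1* from -0.13 to 0.10. With 3 mice a group, the spread between mice limits these values more than depth, since every member stood far above the floor of 3 reads.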
